A study of Mus musculus with 7 samples.

Results

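Pancreatic islets are fed by a dense network of fenestrated capillaries, and 35 genes that mark the endothelial cells of these vessels or steer their growth were followed in islet RNA-seq of second-generation (F2) male mice. The genes were picked by name, all 35 were found among the 21899 genes of the count files through their GENCODE M21 symbols, and each had 1 identifier. The F2 males descend from wild-type C57BL/6J dams injected daily in late gestation with dihydrotestosterone in benzyl benzoate and corn oil (androgen exposure, AE) or with that vehicle alone (control). F1 sons of these dams were mated with unrelated wild-type females, so the F2 males were not themselves exposed in the womb of a treated dam. The labels give 3 control-F2 and 4 AE-F2 samples (the latter labelled hyperandrogenism), and 1 library of each group, control-F2 replicate 1 and AE-F2 replicate 4, was analysed. The sources used here do not give the age of these mice at islet isolation or how many mice made up a library. Islets were freed with collagenase, separated on a gradient and picked by hand, so exocrine, stromal and blood cells can travel with them.

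Endothelial cells line the vessels and are held together by junction proteins. They sense vascular endothelial growth factors (VEGFs) through the receptors encoded by Kdr, Flt1 and Flt4, and angiopoietins through the Tek receptor, which acts beside the related Tie1. In islets, the endocrine cells are a well known source of VEGF-A, and the capillaries they attract are rich in Plvap, a protein of the diaphragms across endothelial pores. Sprouting vessels are led by tip cells, which typically carry Esm1, Angpt2, Apln and the Notch ligand Dll4.

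The libraries held 16285876 counts (control-F2) and 21278503 counts (AE-F2). After TMM scaling and a pseudocount of 0.5, each gene was described by its AE-F2 level relative to control-F2 on the log2 scale. The 95% interval printed with a ratio covers counting error only and leaves out the spread between mice. With only 1 library of each group analysed, no test of the conditions was possible, so all differences are between these 2 libraries. Islet hormone genes were at the top of both libraries, with Ins2 at 128295 CPM (counts scaled to the same library total) in control-F2 and 123879 CPM in AE-F2. Lymphocyte, fibroblast, acinar and immediate early genes separated the libraries, and their values stand beside the results they touch.

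The promoter letters of 5 genes are shown as RefSeq gives them for GRCm38.p6, for Vegfa and Esm1 because they were lower in AE-F2, for Kdr as the main VEGF-A receptor, and for Flt1 and Tie1 as receptors near equality with the most ETS cores among the 5. They are the 250 bases before the annotated start of Vegfa, the growth factor (chr17:46032378-46032627, minus strand, the more upstream of 2 starts), of the receptor genes Kdr (chr5:75978456-75978705, minus strand), Flt1 (chr5:147726012-147726261, minus strand) and Tie1 (chr4:118489850-118490099, minus strand), and of the tip cell gene Esm1 (chr13:113209409-113209658, plus strand). Each reads 5′ to 3′ on the strand of its gene, and capitals mark GGAAG or its reverse complement CTTCC, a core that ETS factors such as the product of the member gene Erg can bind.
Vegfa: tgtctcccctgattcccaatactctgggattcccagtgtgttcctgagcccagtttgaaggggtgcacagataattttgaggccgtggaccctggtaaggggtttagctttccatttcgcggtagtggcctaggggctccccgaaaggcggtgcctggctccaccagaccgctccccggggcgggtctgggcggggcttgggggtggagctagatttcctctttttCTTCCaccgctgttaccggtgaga
Kdr: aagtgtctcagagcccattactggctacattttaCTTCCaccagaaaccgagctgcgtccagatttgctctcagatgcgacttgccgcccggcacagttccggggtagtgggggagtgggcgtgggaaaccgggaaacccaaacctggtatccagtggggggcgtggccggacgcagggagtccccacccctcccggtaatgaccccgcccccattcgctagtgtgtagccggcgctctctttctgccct
Flt1: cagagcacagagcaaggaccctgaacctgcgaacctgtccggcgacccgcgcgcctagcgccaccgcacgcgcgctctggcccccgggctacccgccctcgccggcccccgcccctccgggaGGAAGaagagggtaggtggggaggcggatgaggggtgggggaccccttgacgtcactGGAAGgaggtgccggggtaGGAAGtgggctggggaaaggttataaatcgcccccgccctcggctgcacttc
Tie1: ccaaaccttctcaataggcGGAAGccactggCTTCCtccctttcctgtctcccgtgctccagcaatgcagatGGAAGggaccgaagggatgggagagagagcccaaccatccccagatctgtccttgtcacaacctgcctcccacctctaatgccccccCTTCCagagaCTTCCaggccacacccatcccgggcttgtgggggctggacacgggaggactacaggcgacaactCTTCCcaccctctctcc
Esm1: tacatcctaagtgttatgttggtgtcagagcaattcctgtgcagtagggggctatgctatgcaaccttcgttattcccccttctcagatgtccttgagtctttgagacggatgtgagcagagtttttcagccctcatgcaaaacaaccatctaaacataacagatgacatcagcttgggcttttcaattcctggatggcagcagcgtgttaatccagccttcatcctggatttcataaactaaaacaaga
The core appeared 6 times in the Tie1 window, 3 times in that of Flt1, once each in those of Kdr and Vegfa, and not in that of Esm1. RefSeq windows were found for 18 of the 35 genes. At least 1 core lay in 12 of the 18 (66.7%), close to the 63.7% of all 27025 promoters of this length. The SP1 letters GGGCGG lay in 10 of the 18 on either strand (55.6%) and in 33.0% of all promoters, or 42.7% of the 17492 promoters of protein-coding genes. The hypoxia response letters ACGTG or GCGTG lay in 5 of the 18 (27.8%), in 38.6% of all promoters and in 43.9% of those of protein-coding genes. The longer ETS letters CGGAAG lay in 1 (5.56%), in 13.8% of all and in 17.2% of protein-coding promoters. TATAAA lay in 2 (11.1%), in 13.0% and in 12.4%. CGGAAG holds the GGAAG core. These are matches of letters and do not show binding.

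Both libraries held nearly the same amount of blood endothelial RNA. A core of 20 endothelial genes, all of them among the 35, summed to 17668 counts in control-F2, 0.108% of the library (Clopper-Pearson interval 0.107 to 0.110%), and to 22723 counts in AE-F2, 0.107% (0.105 to 0.108%). After scaling, the AE-F2 sum was 0.987 times the control-F2 sum, with an interval of 0.968 to 1.007. Without Kdr, the most abundant of the 20, the ratio was 0.998. In RNA from whole islets, fewer endothelial cells and less RNA per endothelial cell cannot be told apart.

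Of the 35 genes, 34 averaged 10 or more counts over the libraries. Their median log2 ratio was -0.05, against 0.000 for all 13627 genes that did. Below equality were 22 of the 34 (64.7%), where 6809 of all 13627 genes were. Vwf was at least 1.5-fold higher in AE-F2, 1 of the 34, where 6.04% of all genes were, and Aplnr was 1.5-fold lower, also 1, where 2.19% were. None was 2-fold higher or lower, where 3.16% and 0.653% of all genes were. The counting interval lay below equality for 7 (20.6%), where 13.4% of all genes did, and above equality for 2 (5.88%), where also 13.4% did. Once loess trends on GC content and length were taken out, 3 lay below equality (Vegfa, Esm1 and Angpt2) and 3 above (Vwf, Plvap and Ptprb), where 10.5% of the 13609 genes with known GC content and length lay below and 13.7% above under the same correction. Vwf then passed 1.5-fold higher (6.08% of these genes) and also 2-fold higher (3.23%), while none was 1.5-fold lower (2.16%) or 2-fold lower (0.661%). The median of the 34 genes was then -0.01 and 19 of them lay below equality, where 47.5% of these genes did, since Flt1, Tie1 and Eng turned from slightly below to slightly above it. Of the 34, 26 averaged 100 or more counts, and none of these passed 1.5-fold in either direction, where 0.930% of such genes were higher and 0.626% were lower. Past 2-fold were 0.285% and 0.171% of such genes. The interval lay above equality for 1 of the 26, where 12.2% of such genes did, and below for 7, where 16.1% did. The ratio was above 1 for 7 of the 26, where it was for 46.7% of all such genes, and below 1 for 19, where it was for 53.3%. The remaining gene, Cldn5, which encodes a tight junction protein, had 2 counts in each library, too few for a ratio.

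**Figure D1:**
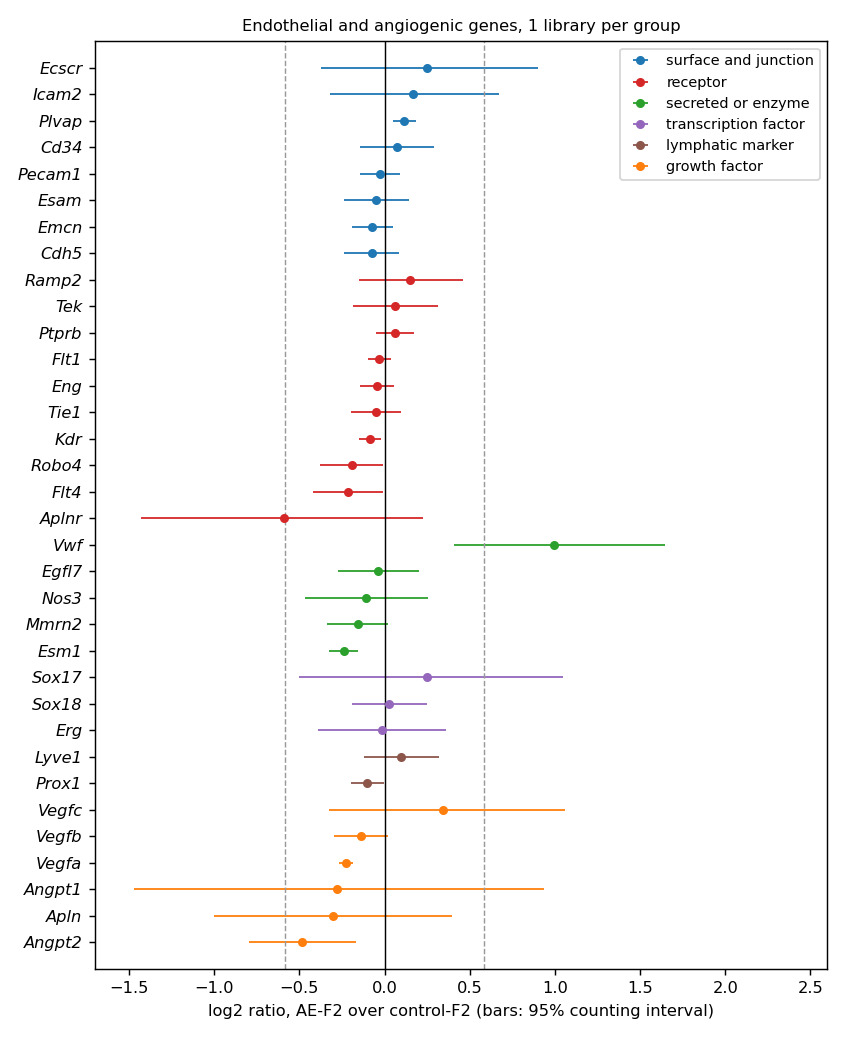
Ratio between the libraries (AE-F2 to control-F2, log2, x axis) for 34 genes, coloured by role, with 95% counting intervals as bars and dashed lines at 1.5-fold. Most intervals cross 0, Vwf stands to the right at 1.00, and Vegfa, Esm1 and Angpt2 lie to the left with intervals below 0.

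Levels of different genes were compared per kilobase of annotated exons, in CPM. Vegfa (ENSMUSG00000023951) was the highest of the 35, at 131.9 CPM per kilobase in control-F2 and 112.7 in AE-F2. Plvap (ENSMUSG00000034845) came next, at 89.3 and 96.8, followed by Esm1 (ENSMUSG00000042379) at 60.9 and 51.6. Kdr, Vegfb and Eng formed a close group between 21.3 and 23.5 in both libraries. In all, 10 genes were above 10 CPM per kilobase in control-F2 and in AE-F2 alike. At the lower end, Vwf stood at 0.122 and 0.246, Angpt1 at 0.153 and 0.127, and Cldn5 at 0.0866 and 0.0665. Counting length by the longest transcript kept the 5 highest genes in the same order.

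**Figure D2:**
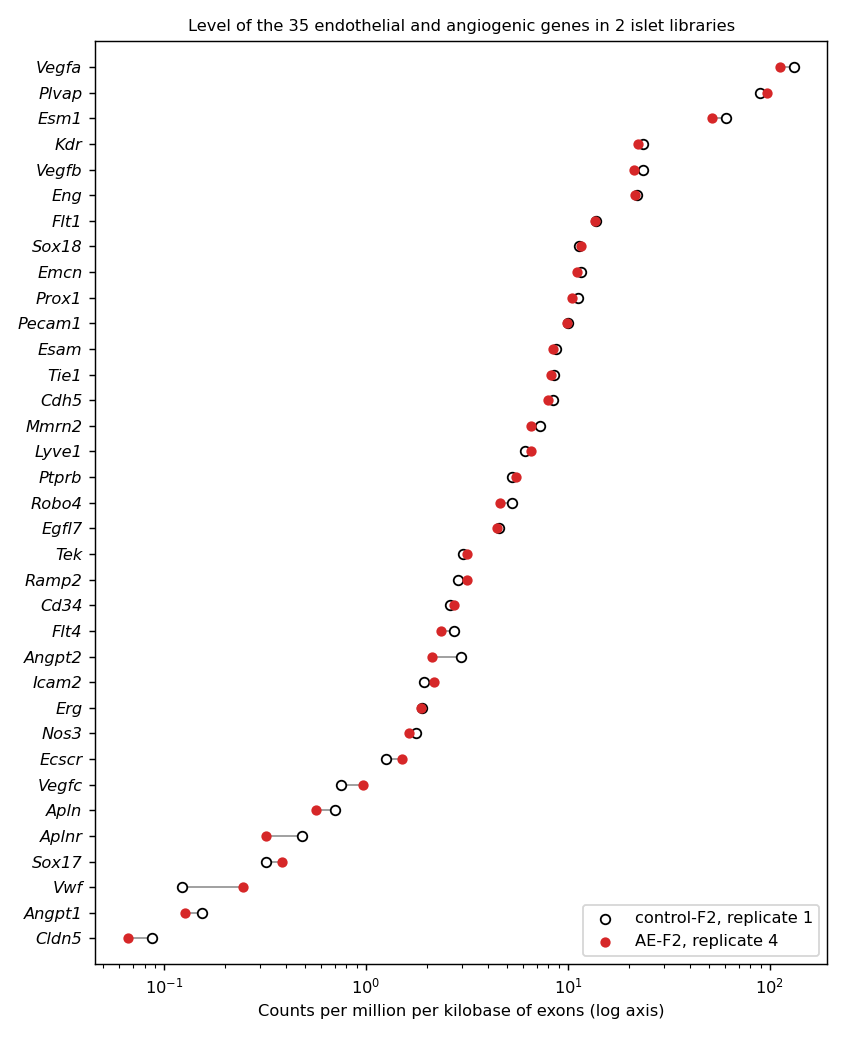
Level of each of the 35 genes in CPM per kilobase of exons (log x axis), with control-F2 replicate 1 as open circles and AE-F2 replicate 4 as red points. Vegfa, Plvap and Esm1 are the highest in both libraries, and the points of most genes nearly coincide, with Vwf, Aplnr and Angpt2 drawn further apart.

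Among the growth factors, 5 of the 6 had a ratio below 1, where 6809 of all 13627 genes did, and 2 had an interval below equality, where 13.4% did. Vegfc, Angpt1 and Apln had at most 50 counts in a library. Vegfa had 9214 counts in control-F2 and 10264 in AE-F2, which after scaling is 565 and 483 CPM. Its log2 ratio was -0.23 (-0.27 to -0.19), a level 1.17-fold lower in AE-F2. Angpt2 (ENSMUSG00000031465), an angiopoietin that mostly opposes Tek signalling and is released by endothelial cells, had 178 and 166 counts. Its log2 ratio of -0.48 (-0.80 to -0.17) was the lowest of the 26 genes that averaged 100 or more counts. Angpt1, which activates Tek, had 13 and 14 counts, so no difference was detectable at this depth (-1.47 to 0.93).

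The other VEGFs did not share a clear difference. Vegfb had 613 and 726 counts, a log2 ratio of -0.14 (-0.29 to 0.02). Vegfc, a ligand of Flt4 that drives lymphatic growth, had 30 and 50 counts (0.35, interval -0.33 to 1.06). Placental growth factor (Pgf), which binds Flt1 and is not among the 35, had 394 and 445 counts, a log2 ratio of -0.21 (-0.41 to -0.01). Per kilobase, Vegfa stood 5.63-fold above Vegfb in control-F2 and 5.30-fold in AE-F2. Apln, which encodes the ligand apelin, had 36 and 38 counts (-0.30), and counting error spanned equality.

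The VEGF receptors were slightly lower in AE-F2 or near equality, and the intervals of Kdr and Flt4 lay below it. With the GC and length trends taken out, both intervals held equality. Kdr (ENSMUSG00000062960), the main signalling receptor for VEGF-A, had 3458 counts in control-F2 and 4241 in AE-F2, a log2 ratio of -0.09 (-0.15 to -0.02). Flt1 (ENSMUSG00000029648), which also binds VEGF-A and can act as a decoy, had 3046 and 3887 counts (-0.03, interval -0.10 to 0.04). Flt4, the receptor for VEGF-C, had 368 and 413 counts (-0.22, interval -0.42 to -0.01). The Kdr level was 1.70-fold that of Flt1 in control-F2 and 1.63-fold in AE-F2, a shift of -0.06 on the log2 scale that counting error spans (-0.15 to 0.04). The Vegfa level was 5.62-fold that of Kdr in control-F2 and 5.10-fold in AE-F2, a shift of -0.14 (-0.22 to -0.06).

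The angiopoietin receptor pair was likewise near equality. Tek had 232 and 316 counts (log2 ratio 0.06, interval -0.19 to 0.31) and Tie1 (ENSMUSG00000033191) had 680 and 857 (-0.05, interval -0.20 to 0.10). Ptprb, a phosphatase that restrains Tek, had 1148 and 1560 counts (0.06, interval -0.05 to 0.17). The Angpt2 level was 0.980-fold that of Tek in control-F2 and 0.671-fold in AE-F2, a shift of -0.55 on the log2 scale (-0.94 to -0.16).

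Of the remaining receptor genes, Eng, a co-receptor for TGF-β family ligands, had 1457 and 1843 counts (log2 ratio -0.04). Robo4, which steadies vessels, had 457 and 521 (-0.19, interval -0.38 to -0.01), and with GC and length trends removed its interval held equality (-0.13, -0.31 to 0.06). Ramp2, a partner of the adrenomedullin receptor, had 154 and 223 (0.15, interval -0.15 to 0.46). The apelin receptor gene Aplnr had 29 and 25 counts. At -0.59 it was the gene past 1.5-fold in the lower direction, but its interval, -1.43 to 0.23, spanned equality.

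Most surface and junction genes of the vessel wall were near equality. Pecam1, an adhesion protein found throughout the endothelium, had 1020 counts in control-F2 and 1304 in AE-F2, a log2 ratio of -0.03 (-0.15 to 0.09). Cdh5, the VE-cadherin of endothelial junctions, had 577 and 713 (-0.08, interval -0.24 to 0.08). Esam and Emcn, further endothelial surface proteins, had log2 ratios of -0.05 and -0.07, and Cd34, also carried by blood progenitors, had 0.07. Icam2 and Ecscr were sparse, with 60 and 88 counts and 36 and 56 counts.

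Plvap departed slightly from these genes. It had 2894 counts in control-F2 and 4088 in AE-F2, a log2 ratio of 0.12 (0.05 to 0.19), 1.08-fold higher in AE-F2. Relative to Kdr its level went from 3.80-fold to 4.38-fold, a log2 shift of 0.20 (0.11 to 0.30). With length counted by the longest transcript these ratios were 2.50-fold and 2.87-fold, with the same shift. Of the 34 genes, 28 (82.4%) had an interval that held the ratio of the endothelial core sum, where 73.2% of all genes did. However, 19 of the 34 are part of that sum, and 17 of these 19 held its ratio. The 82.4% is therefore not independent of the sum. Kdr and Plvap, which are part of that sum, and Vwf, Esm1, Vegfa and Angpt2, which are not, had intervals that did not hold it.

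The transcription factors showed no detectable difference. Sox18, an early endothelial regulator, had 300 and 398 counts (log2 ratio 0.03, interval -0.19 to 0.25). Erg, which keeps the endothelial programme running, had 107 and 138 (-0.02, interval -0.39 to 0.36). Sox17, a factor of arterial endothelium, had 25 and 39 (0.25, interval -0.50 to 1.05).

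The secreted proteins and enzymes held the highest ratio of the 34 genes, that of Vwf, and a lower level of Esm1. Vwf (ENSMUSG00000001930), the von Willebrand factor that tethers platelets and is typically strongest in veins and larger vessels, had 32 counts in control-F2 and 84 in AE-F2. Its log2 ratio was 1.00 (0.41 to 1.65), just under the 2-fold mark that 3.16% of all genes passed. With GC and length trends removed it was 1.13 (0.54 to 1.77), over that mark. Esm1, a proteoglycan induced by VEGF-A in tip cells, had 2083 and 2299 counts, 128 and 108 CPM. Its log2 ratio was -0.24 (-0.33 to -0.15), a level 1.18-fold lower in AE-F2. Mmrn2, an endothelial matrix protein, had 472 and 551 counts (-0.16, interval -0.34 to 0.02). Egfl7 had 267 and 339 (-0.04), and Nos3, the nitric oxide synthase of endothelium, had 119 and 144 (-0.11, interval -0.47 to 0.26).

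Genes used as lymphatic markers were unevenly detected, and several are shared with other cells. Prox1, the master regulator of lymphatic endothelium, had 1535 and 1865 counts (log2 ratio -0.10, interval -0.20 to -0.00), but islet endocrine cells also express it. With GC and length trends removed its interval held equality (-0.06, -0.16 to 0.04). Lyve1, which some macrophages share with lymphatic vessels, had 292 and 407 (0.10, interval -0.12 to 0.32). The further lymphatic markers Pdpn, with 4 and 6 counts, and Mmrn1, with 0 in both, were at or near the floor. A count of 0 allows up to 3 counts, which is 0.184 CPM in control-F2 and 0.141 CPM in AE-F2. Reln had 62 and 67 counts.

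**Figure D3:**
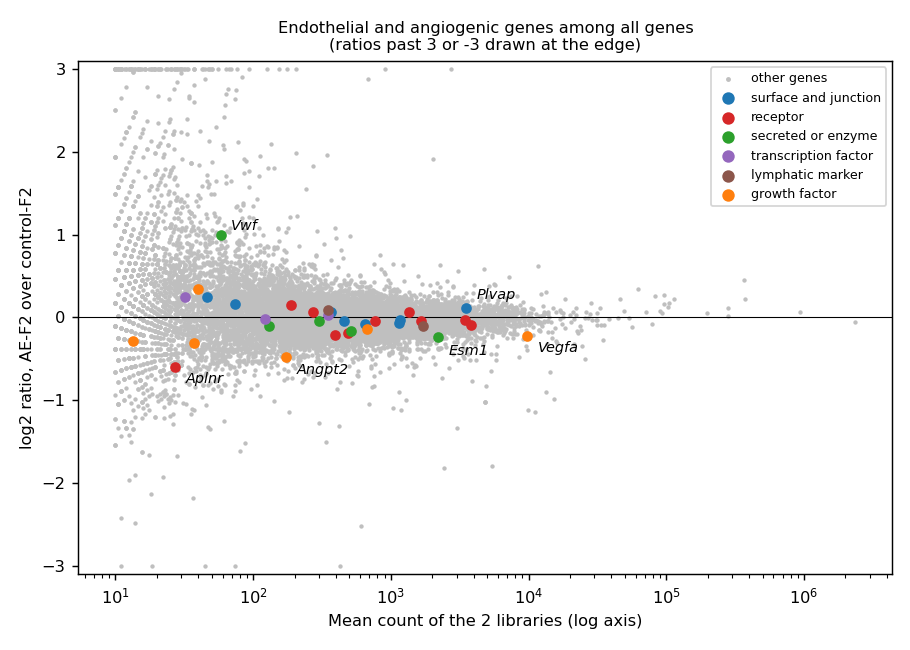
Ratio of AE-F2 to control-F2 (log2, y axis) against the mean count of both libraries (log x axis) for the 13627 genes, with 34 endothelial and angiogenic genes coloured by role. They lie within the grey cloud, with Vwf at 1.00, Vegfa at -0.23 and Esm1 at -0.24.

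A further list of 40 endothelial, VEGF and Notch genes, none of them among the 35, gave a similar picture. Of the 37 that averaged 10 or more counts, none passed 1.5-fold, 4 had an interval above equality and 6 below, where 13.4% of all genes lay on either side, and the median log2 ratio was -0.03. Both counts are near that share. Its most abundant genes were Epas1, the hypoxia-inducible factor of endothelium (1969 and 2423 counts, log2 ratio -0.08), the surface receptor gene Adgrf5 (1397 and 1982, 0.12), the VEGF co-receptor gene Nrp1 (1273 and 1606, -0.05) and Notch1 (1259 and 1556, -0.08). The 6 lower genes, named for their values, were Dll4, Jag2, Notch4, Unc5b, Plxnd1 and Pgf. Dll4, the Notch ligand of tip cells, had 380 counts in control-F2 and 373 in AE-F2, a log2 ratio of -0.41 (-0.62 to -0.20). Jag2, another Notch ligand, had 892 and 898 counts (-0.37, interval -0.51 to -0.24), and it is not confined to endothelium. With GC and length trends removed its log2 ratio was -0.24 (-0.37 to -0.10). The 4 higher genes were Adgrf5, Adgrl4, Ets1 and Cyyr1, with Cyyr1 at 0.28 (0.12 to 0.45).

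Because Esm1 and Angpt2 were low in AE-F2, a list of 12 tip cell genes was drawn up after the values of the 35 genes were seen. The 11 that averaged 10 or more counts had a median log2 ratio of -0.24, 6 with an interval below equality and 1 above, where 13.4% of all genes lay on either side. They include Esm1 and Angpt2, which prompted the list, so the count is no independent evidence. Of the 8 that are not among the 35, 4 lay below equality (Dll4, Unc5b, Pgf and Rgcc) and 1 above (Cxcr4, at 60 and 110 counts, a gene that lymphocytes also carry), with a median of -0.22. Dll4, Unc5b and Pgf are also in the list of 40. With GC and length trends removed, Rgcc at -0.29 (-0.51 to -0.07) stayed below equality, and Dll4 stayed below equality at -0.35 (-0.56 to -0.14), while Unc5b at -0.18 (-0.43 to 0.06) and Pgf at -0.18 (-0.38 to 0.02) did not.

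Immediate early genes, hypoxia targets and islet endocrine genes were set beside the lower Vegfa and Esm1. All 10 immediate early genes examined were at least 1.5-fold lower in AE-F2, where 2.19% of all genes were. Their median log2 ratio was -1.05, and Fos had 18615 and 12218 counts. These genes respond within minutes to handling and stimulation, and their part in the result was not tested. The hypoxia list, whose genes are typical targets of the factors that also induce Vegfa, had a median of -0.07 over 9 genes and a summed level 0.996-fold that of control-F2 (0.968 to 1.025), 2 with an interval above equality (Ldha and Pgk1) and 2 below (Ndrg1 and P4ha1). Of the islet endocrine list, 5 of 10 genes lay below equality, with Slc2a2, the glucose transporter of β-cells, at -0.28 (-0.31 to -0.25), and 3 lay above, with Gcg at 0.46. Over all genes, 13.4% lay on either side, and among those that averaged 100 or more counts 16.1% lay below and 12.2% above.

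The higher Vwf was set beside other vein and large vessel genes, a list of 10 that was also drawn up after Vwf was seen. The 9 genes other than Vwf summed to 1479 counts in control-F2 and 2431 in AE-F2, 1.26-fold higher after scaling (1.18 to 1.35). Ehd4, a membrane trafficking gene that holds most of these counts, had 942 and 1298 (log2 ratio 0.08, interval -0.04 to 0.20), and the 8 genes without it were 1.62-fold higher as a sum (1.46 to 1.80). Those 8 summed to 537 counts in control-F2 and 1133 in AE-F2, of which Bgn alone held 264 and 607. Vcam1, an adhesion protein of activated endothelium and also of stromal cells, had 13 and 119 counts (log2 ratio 2.76, interval 1.98 to 3.76). Lrg1, a secreted glycoprotein found in venules, had 7 and 45 counts (2.22, interval 1.14 to 3.70). The selectin genes Sele and Selp, which catch white blood cells at the vessel wall, had 0 and 8 counts and 3 and 13 counts. Bgn, a matrix proteoglycan that fibroblasts also make, had 264 and 607 (0.82, interval 0.61 to 1.03). By contrast Nr2f2, a determinant of venous identity, had 72 and 85 counts (-0.14, interval -0.61 to 0.33), and Ephb4, a venous receptor, had 176 and 247 (0.11, interval -0.18 to 0.39).

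Several non-endothelial lists moved with these genes. The 8 fibroblast genes summed to 745 and 2045 counts, 2.11-fold higher in AE-F2 (1.94 to 2.29), with all 7 that reached the minimum past 1.5-fold, where 6.04% of all genes were, and Col3a1 at 0.98. The 9 lymphocyte genes summed to 252 and 8243 counts, 25.1-fold higher (22.1 to 28.6), led by Ighm at 51 and 5376, with Cd3e and Cd3d at 0 in control-F2. The 5 erythrocyte genes were 1.39-fold higher as a sum. Of 8 platelet and megakaryocyte genes, which matter because platelets carry von Willebrand factor, 5 had at most 3 counts in both libraries and all summed to 27 and 31 counts. Of 5 genes of high endothelial venules, the vessels of lymph nodes, Glycam1 and Chst4 had 0 in both. Ccl21a had 0 and 6, Fut7 0 and 3, and Madcam1 0 and 1, so the 5 summed to 0 counts in control-F2 and 10 in AE-F2. The part of fibroblasts, lymphoid cells and blood in the Vwf, Vcam1 and Lrg1 values was not tested.

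**Figure D4:**
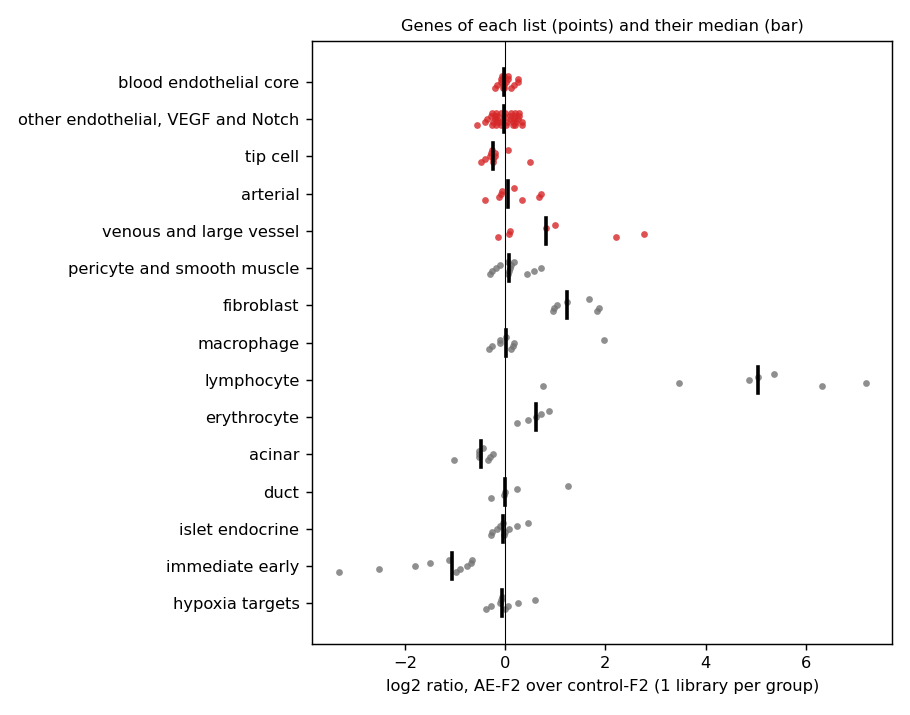
Ratio of AE-F2 to control-F2 (log2, x axis) for the genes of each list that averaged 10 or more counts (points) and the median of the list (black bar), with endothelial lists in red and other lists in grey. The blood endothelial core lies close to 0, the tip cell list has its median at -0.24, and the fibroblast and lymphocyte lists lie far to the right.

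The remaining lists of cells that islets can carry were as follows. The 8 acinar genes were 0.705-fold as a sum, all 8 lower in AE-F2, where 6809 of all 13627 genes were. The 6 duct genes were 1.14-fold as a sum, with most of their counts on Krt7 (4020 and 6195). Of 10 macrophage genes, 9 reached the minimum, with a median log2 ratio of 0.02 and C1qa at -0.25. Lyz2, at 112 and 571 counts, was the gene past 1.5-fold higher, where 6.04% of all genes were.

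Some of the 35 genes share sequence with neighbours, which limits their values. Of the 35, 8 have an exon that overlaps a gene on the opposite strand in GENCODE M21 (Eng, Egfl7, Nos3, Sox17, Cd34, Ecscr, Prox1 and Angpt1), and the counting is not stated to use strand. Egfl7 and Ramp2 also overlap a gene on the same strand, and the AE-F2 value of Ramp2 was the only one of the 35 genes that was not whole.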

How the data were processed

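Islet RNA was oligo-dT enriched, made into libraries without strand information stated, and sequenced on an Illumina instrument. Values deposited by the authors are estimated counts of each gene, with no scaling for depth or gene length. The methods name HISAT2 for alignment, while the submitters' processing notes name Bowtie2, RSEM and DESeq2; the genome build and annotation of the RNA-seq are not given in the sources used here. Of the 7 labelled samples, 1 control-F2 and 1 AE-F2 library were analysed, and the other 5 were not analysed here. Of 21899 genes, 21806 matched a GENCODE M21 symbol.

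Counts were rounded, scaled with TMM (edgeR 4.0.16, R 4.3.3), and kept where a gene averaged 10 or more (13627 genes). Ratios used a pseudocount of 0.5, with 95% Clopper-Pearson intervals on the AE-F2 share of the counts (scipy 1.17.1), and intervals on shifts between 2 genes used the Poisson errors of the 4 counts on the log scale. PCR copies are not independent molecules, so intervals cover counting error only. The deeper AE-F2 library has the smaller error. CPM per kilobase used the exonic length of GENCODE M21. No model was fitted, since 1 library of each group was analysed. The steps were tested on simulated data. Alternatives were other scalings (DESeq2 1.42.0 size factors among them), minimum counts, pseudocounts and folds, unrounded counts, and removal of GC and length trends by loess. Leaving lymphoid genes out of the scaling, and length by the longest transcript, are alternatives chosen after seeing the data.

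The 35 genes and the lists were chosen with earlier results of these data known. All 35 genes are named, with up to 4 of the most abundant genes of each other list and those past 1.5-fold with a mean of at least 100 counts. Not all that this rule covers are printed, and other named genes were chosen after their values were seen.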

Additional observations from a re-analysis of the deposited data

How the results depend on the processing

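The ratios of the 34 genes were recomputed under 7 alternatives, and all 238 values stayed within the counting interval of the reported ratio. Most of these alternatives could hardly move a ratio. The scaling factors of AE-F2 over control-F2 ran only from 1.303 to 1.307, and unrounded counts changed Ramp2 alone. The median log2 ratio ran from -0.05 to -0.01 over all alternatives, the value nearest 0 being the one with GC content and transcript length trends removed, which turned the direction of Flt1 (0.02), Tie1 (0.03) and Eng (0.02), whose intervals held equality throughout. That alternative also left 3 genes with an interval below equality in place of 7, since the intervals of Kdr, Flt4, Robo4 and Prox1 then held equality, and it left 0 genes at least 1.5-fold lower. With a pseudocount of 5 counts, 0 genes were 1.5-fold lower, and with a minimum mean of 50 counts, which drops Aplnr, there were also 0. At the lower of the alternative fold thresholds, 2 genes were higher and 2 lower, where 11.3% and 6.85% of all genes were, and at 2-fold there were 0 higher and 0 lower, although Vwf passed 2-fold once GC and length trends were also removed (1.13). The log2 ratio of the endothelial core sum was -0.02 under every scaling and -0.003 without its most abundant gene. No paired analysis was possible because the control-F2 and AE-F2 libraries analysed carry different replicate numbers and each group has 1 library among those analysed. No library could be left out for the same reason. Depth limits the sparse genes: for Vwf, Sox17, Ecscr, Vegfc, Apln, Aplnr and Angpt1 the interval spans more than 1 log2 unit.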

Other observations

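Of 9 arterial genes, a list drawn up after the values of the endothelial genes were seen, 8 had a mean of at least 10 counts, 2 had an interval above equality and 1 below, where 13.4% of all genes lay on either side, and the median log2 ratio was 0.06. The gene below was Dll4, which is also in the list of 40 genes and in the tip cell list. Gja4, a connexin of arterial endothelium, had 51 counts in control-F2 and 107 in AE-F2 (0.68, with an interval above equality). Stmn2, better known from neurons, had 103 and 220 (0.71, interval 0.37 to 1.06). Gja5, another arterial connexin, had 30 and 36 (-0.12, interval -0.86 to 0.63), and Efnb2, an arterial ephrin, had 272 and 341 (-0.06, interval -0.29 to 0.18).

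The 13 genes of pericytes and smooth muscle, the mural cells around vessels, had a median log2 ratio of 0.08, 3 with an interval above equality and 2 below (13.4% of all genes lay on either side), and summed to 5258 and 7090 counts, 1.03-fold higher in AE-F2 (0.998 to 1.07). Rgs5, the leading pericyte gene, had 2776 and 3835 counts (0.08, interval 0.01 to 0.16) and Pdgfrb, the receptor through which endothelium recruits pericytes, had 406 and 549 (0.05, interval -0.13 to 0.24). Mcam, carried by pericytes and endothelium, had 542 and 586 (-0.27, interval -0.44 to -0.10), and Acta2, the actin of smooth muscle, had 200 and 210 (-0.31, interval -0.60 to -0.02). Des, a filament protein of muscle and pericytes, had 62 and 121 (0.58, interval 0.13 to 1.05).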
